A study of Mus musculus with 22 samples.

Results

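The genes described here encode the surface proteins by which SLAM LSK haematopoietic stem cells are sorted or commonly recognised: Slamf1, Slamf2, Cd48, Kit, Ly6a, Cd34, Procr and Cd27. They were taken by name, and each is read from its probe with a single gene symbol, or from the brightest such probe on average over the 22 arrays where there are several. The 8 names stand for 7 genes, since Slamf2 is a synonym of Cd48, and 6 of the 7 were measured among 22180 genes in all. Ly6a, the gene of Sca-1, has no probe with its symbol in the probe annotation used here, so the Sca-1 part of the gate could not be examined in RNA.

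Total RNA came from wild-type C57Bl/6J mouse embryos at E14.5 (embryonic day). Liver cells were placed on a layer of OP9-DL1 stroma, a bone marrow line that carries the Notch ligand Delta-like 1, so every group received a Notch ligand. The medium held either 1 µM gamma-secretase inhibitor (GSI), which blocks the cleavage that activates Notch receptors, or its solvent DMSO. SLAM LSK cells were sorted after the culture, not before it. After 4 h there were 7 DMSO and 7 GSI samples and after 10 h there were 4 of each, and every DMSO sample had a GSI partner from the same biological replicate. No uncultured sample was analysed here, so a difference between 4 h and 10 h is one between culture times and has no starting level.

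LSK cells lack the antigens of mature lineages and carry Sca-1 and the receptor tyrosine kinase Kit. Within them the SLAM family receptors separate stem cells from progenitors: stem cells carry CD150, the product of Slamf1, and lack CD48, a GPI-anchored relative that binds the SLAM family receptor CD244. CD34 is a sialomucin of progenitors and of endothelium, EPCR (the product of Procr) is the endothelial protein C receptor that also marks stem cells, and CD27 is a tumour necrosis factor receptor family member of early progenitors. Sorting acts on the protein at the cell surface, whereas the arrays measured RNA.

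Values are log2 expression as deposited, errors of levels are SDs, and errors of differences are standard errors (SE). The median gene of an array was at 5.34 to 5.45 at 4 h and at 4.67 to 4.81 at 10 h, and nothing states whether the 4 h and 10 h arrays went through normalization together, so differences between times were computed after each array was centred on its own median gene. By the codes that the descriptions carry, the 4 h samples fall into 3 runs, of which run 1 holds pair 1, run 2 pairs 2 and 3, and run 3 pairs 4 to 7. The 10 h samples fall into 2 runs of 2 pairs, with pairs 1 and 2 in the first. What a run stands for is not stated, and since each belongs to 1 culture time, time and run cannot be told apart. Where genes are said to rise or fall between the times, the 10 h arrays are set against 4 h arrays of other cultures and runs. Hes1, a direct Notch target, was lower with GSI by −0.97 ± 0.09 at 4 h and −1.36 ± 0.12 at 10 h (limma adjusted p = 0.000199 and 4.72e-05). The 14 measured genes of lineage antigens, which the gate removes, had a mean level between −1.31 and −0.89 relative to the array median; all 14 were below it on average at 4 h and 13 of 14 at 10 h.

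Pair 6 of the 4 h cultures stood apart in both of its arrays. Ptprc, which encodes the pan-leucocyte antigen CD45, was at 6.98 in the DMSO and 6.67 in the GSI array of that pair, against 8.68 to 9.93 in the other 4 h arrays. Cdh5, which encodes the endothelial cadherin, was highest there, at 11.80 and 11.82, and lowest in pair 1, at 8.73 and 8.92. Ptprc and Cdh5 were chosen for display after their values had been seen. A low level in a sorted sample can come from fewer cells of a type or from less RNA per cell, and bulk arrays cannot tell these apart.

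The promoters of Slamf1, Cd48 and Procr are shown because these 3 genes passed the test between culture times, and that of Cd34 because it had the largest GSI difference. Each line gives the 250 bases before the annotated RefSeq start on the gene's strand, which is the plus strand for all 4, in GRCm38.p6: chr1:171766882-171767131 for Slamf1, chr1:171681742-171681991 for Cd48, chr2:155750967-155751216 for Procr and chr1:194938571-194938820 for Cd34. Slamf1 and Cd48 both belong to the SLAM receptor gene cluster of chromosome 1. Capitals mark matches on either strand to TGGGAA (the core letters bound by RBPJ, the DNA-binding partner of Notch), TGTGGT (RUNX factors) and GATAA (GATA factors), 3 motifs that do not overlap here and were picked after the expression values were known.
Slamf1: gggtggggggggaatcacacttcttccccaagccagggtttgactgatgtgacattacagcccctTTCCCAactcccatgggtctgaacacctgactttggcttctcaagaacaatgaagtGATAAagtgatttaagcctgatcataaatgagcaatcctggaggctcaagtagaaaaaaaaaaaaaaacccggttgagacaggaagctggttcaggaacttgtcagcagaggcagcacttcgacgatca
Cd48: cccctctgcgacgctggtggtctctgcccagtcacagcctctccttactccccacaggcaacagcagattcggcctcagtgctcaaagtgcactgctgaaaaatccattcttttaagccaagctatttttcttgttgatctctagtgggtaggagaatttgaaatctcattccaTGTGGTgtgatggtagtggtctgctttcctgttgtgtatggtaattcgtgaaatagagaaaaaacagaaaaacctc
Procr: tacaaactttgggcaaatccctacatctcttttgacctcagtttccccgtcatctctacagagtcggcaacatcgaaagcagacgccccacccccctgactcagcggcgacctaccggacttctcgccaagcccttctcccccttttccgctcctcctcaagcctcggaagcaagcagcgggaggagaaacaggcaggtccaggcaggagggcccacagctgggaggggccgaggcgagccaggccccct
Cd34: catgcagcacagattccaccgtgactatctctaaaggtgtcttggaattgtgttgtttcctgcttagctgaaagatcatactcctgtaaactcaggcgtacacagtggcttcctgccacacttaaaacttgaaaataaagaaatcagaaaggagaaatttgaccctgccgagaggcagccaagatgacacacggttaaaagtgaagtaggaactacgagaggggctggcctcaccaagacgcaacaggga
Slamf1 holds a TGGGAA match on the opposite strand, read as TTCCCA with its first base at position -185 from the start, and a GATAA at -129. Cd48 holds a TGTGGT at -76. The windows of Procr and Cd34, and those of Kit and Cd27, which are not shown, hold none of the 3. Of 32851 mouse promoter windows of this length, 21.6% hold TGGGAA, 14.0% TGTGGT and 22.6% GATAA on either strand. A match is a description of these letters and not evidence of binding.

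**Figure D1:**
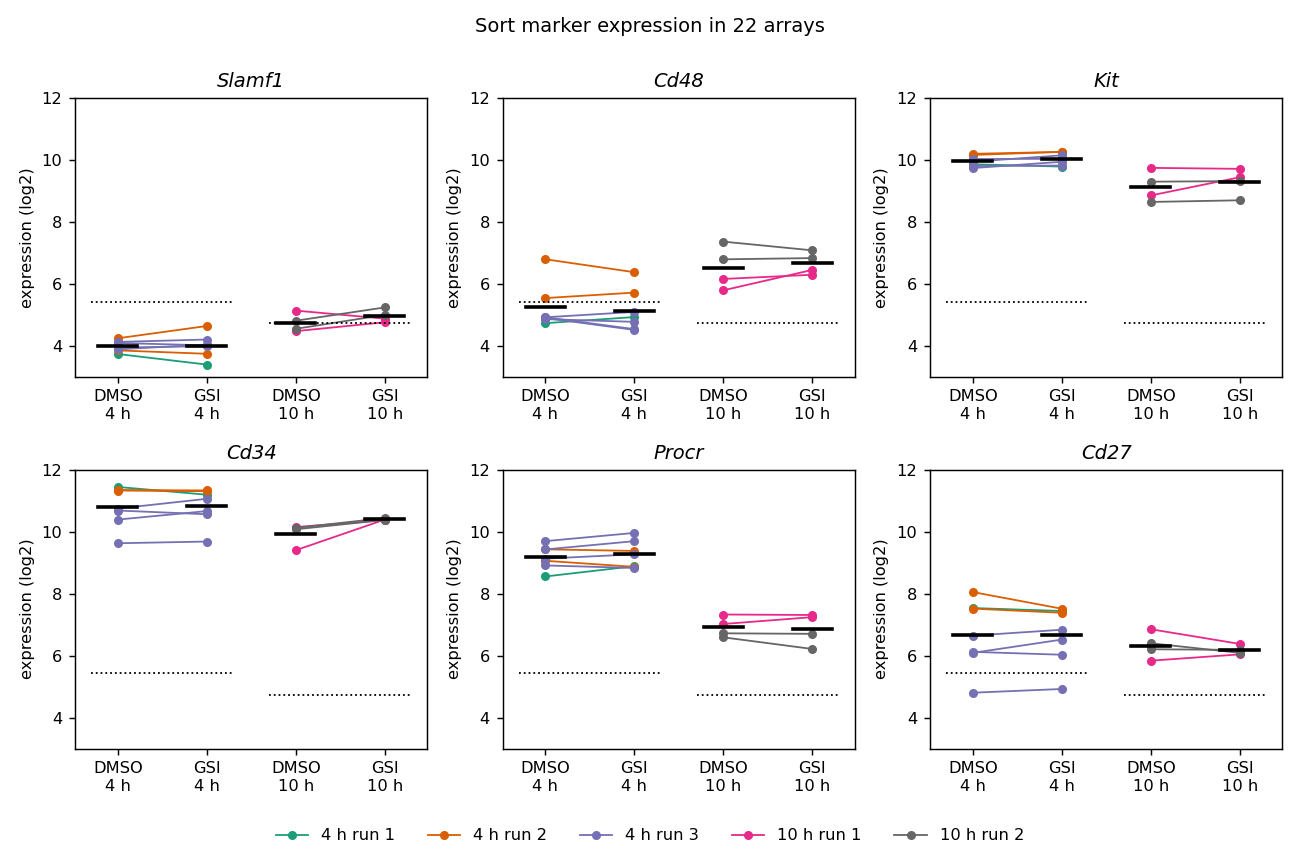
Log2 expression of the 6 measured sort marker genes in each array (vertical axis), by treatment and culture time (horizontal axis); lines join the DMSO and GSI arrays of a pair, colours are runs, black bars are group means and dotted lines the median of the array medians at that time. Procr lies at 8.56 to 9.96 at 4 h and 6.22 to 7.33 at 10 h, and the 4 GSI arrays at 10 h lie close together for Cd34.

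The SLAM receptor that stem cells carry, Slamf1 (Entrez 27218, chromosome 1), had low array signal at 4 h and a higher one at 10 h in both treatments. At 4 h it ran from 3.74 through a median of 3.94 to 4.25 in DMSO, and from 3.40 through 4.02 to 4.64 in GSI. At 10 h the 4 pairs had 5.14, 4.48, 4.81 and 4.55 in DMSO and 4.88, 4.76, 5.24 and 5.001 in GSI. Within each treatment every 10 h array lay above every 4 h array, also before centring, though how many of all genes do so was not counted. The position of this probe within its own array moved the same way, from a median percentile of 23.5 among all genes in DMSO at 4 h to 48.7 at 10 h, and from 25.0 to 52.8 in GSI. After centring it was higher at 10 h by 1.42 ± 0.13 in DMSO and 1.65 ± 0.19 in GSI (n = 7 against 4, limma adjusted p = 1.18e-05 and 2.63e-05). Detection calls were not used here, so it is not known whether the 4 h signal is above background.

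Cd48 (Entrez 12506, chromosome 1), whose protein the SLAM gate of stem cells excludes, was also higher at 10 h. It ran from 4.73 through a median of 4.92 to 6.80 in DMSO at 4 h, and from 4.52 through 4.93 to 6.38 in GSI. The high end is run 2: its 4 arrays had 5.54 to 6.80, whereas the 10 arrays of runs 1 and 3 had 4.52 to 5.10. At 10 h the values were 5.79, 6.16, 6.80 and 7.37 in DMSO and 6.45, 6.30, 6.84 and 7.09 in GSI. These overlap with run 2 and lie above every array of the other 4 h runs. Cd48 rose by 1.95 ± 0.38 in DMSO, a 3.87-fold difference, and by 2.21 ± 0.32 in GSI, a 4.64-fold difference (limma adjusted p = 0.000946 and 0.000119). Its median percentile within the array moved from 43.1 to 70.9 in DMSO and from 42.7 to 72.7 in GSI.

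RNA of a marker that the stem cell gate requires and of one that it excludes therefore rose in the same comparison. Among the 10 other measured genes of SLAM receptors and their adaptors, a list from general knowledge, 3 rose and 0 fell in DMSO, with a median of 0.18, and 2 rose and 0 fell in GSI, with a median of 0.08, where the median of all genes was 0.25 and 0.26. Over all genes 42.0% passed as higher and 10.7% as lower in DMSO, and 44.7% and 10.8% in GSI, so the shares of 3 and 2 of 10 lie below that of all genes. Without centring 0 rose and 6 fell in DMSO and 0 rose and 7 fell in GSI, with quantile normalization 2 rose and 1 fell and 1 rose and 2 fell, and with cyclic loess 2 rose and 1 fell and 0 rose and 2 fell. Over all 22180 genes 464 rose and 12884 fell in DMSO without centring, and 470 and 14425 in GSI. With quantile normalization these were 4171 and 3394 in DMSO and 4625 and 3578 in GSI. With cyclic loess they were 3454 and 3727, and 3669 and 4089. These counts over all genes also apply to the lists that follow. Cd244a, which encodes the CD48 receptor CD244, rose by 0.69 ± 0.10 in DMSO and 0.54 ± 0.12 in GSI, and Ly9 (CD229) rose by 0.78 ± 0.17 and 0.62 ± 0.22. Neither passed without centring, where Cd244a differed by 0.02 and −0.15 and Ly9 by 0.12 and −0.06 in DMSO and GSI. In GSI Cd244a also did not pass at 0.29 with quantile normalization and 0.27 with cyclic loess, and Ly9 did not pass with cyclic loess at 0.58, a value near that of the reported fit.

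Kit (Entrez 16590, chromosome 5), the receptor of stem cell factor and the K of LSK, had a high signal in every array and varied little at 4 h. It ran from 9.74 through 9.95 to 10.20 in DMSO at 4 h and from 9.79 through 10.04 to 10.27 in GSI. At 10 h it was 8.86, 9.75, 9.30 and 8.65 in DMSO and 9.45, 9.72, 9.32 and 8.70 in GSI. Relative to its own array it was at a median percentile of 96.6 and 97.1 at 4 h and 94.8 and 95.9 at 10 h, in DMSO and GSI. After centring the difference between times was −0.16 ± 0.19 in DMSO and −0.06 ± 0.17 in GSI, which did not pass (limma adjusted p = 0.48 and 0.776). This depends on the scaling: without centring Kit was lower by −0.83 and −0.74 and with cyclic loess by −0.47 and −0.47, and passed, whereas with quantile normalization it was −0.40 and −0.38 and did not (limma adjusted p = 0.0795 and 0.0823).

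Of 17 other measured genes of Kit ligand and signalling, 0 rose and 6 fell in DMSO and 1 rose and 6 fell in GSI between 4 h and 10 h, beside 10.7% and 10.8% of all genes that fell. Without centring 15 of 17 fell in each treatment, beside 12884 and 14425 of 22180 genes in DMSO and GSI. With quantile normalization 8 and 7 fell, beside 3394 and 3578 of all genes. With cyclic loess 8 and 8 fell, beside 3727 and 4089. Sh2b3, which encodes LNK, an adaptor that restrains Kit and thrombopoietin receptor signalling, fell by −1.76 ± 0.23 in DMSO and −1.31 ± 0.15 in GSI. Fyn, a Src family kinase, fell by −1.33 ± 0.21 and −1.28 ± 0.18, and Gab2, a docking adaptor, by −0.996 ± 0.31 and −0.93 ± 0.21. These 3 passed with the same sign under all 4 scalings in both treatments.

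Sca-1 belongs to the Ly6 family of small GPI-anchored proteins. Of 12 other measured genes of the Ly6 family, 2 rose and 1 fell in DMSO and 4 rose and 1 fell in GSI, beside 42.0% and 44.7% of all genes that rose. The balance turned without centring, where 12884 and 14425 of 22180 genes fell in DMSO and GSI. There 0 of the list rose and 7 fell in DMSO and 0 rose and 8 fell in GSI. With quantile normalization or cyclic loess 1 rose and 0 fell in DMSO and 1 rose and 1 fell in GSI. The gene that fell in both was Gpihbp1, which encodes a lipoprotein lipase transporter of capillary endothelium, by −1.45 ± 0.52 and −1.63 ± 0.46 (limma adjusted p = 0.0317 and 0.00918), and in DMSO it did not pass with quantile normalization (−1.42) or cyclic loess (−1.48), at about the same size. Lypd6b rose by 0.69 ± 0.10 and 0.61 ± 0.10, but not in the values without centring (0.03 and −0.07).

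Procr (Entrez 19124, chromosome 2) was lower in the 10 h arrays than in the 4 h arrays. It ran from 8.56 through 9.13 to 9.70 in DMSO at 4 h and from 8.83 through 9.27 to 9.96 in GSI. At 10 h it was 7.02, 7.33, 6.59 and 6.72 in DMSO and 7.24, 7.31, 6.22 and 6.70 in GSI. The groups of both times do not overlap in the deposited values, in which the median gene was lower at 10 h as well. How many of all genes are apart in this way was not counted. The difference was −1.60 ± 0.22 in DMSO, a 3.03-fold decrease, and −1.72 ± 0.26 in GSI, a 3.29-fold decrease (limma adjusted p = 8.7e-05 and 0.00016). Without pair 6, which had the highest value in each treatment, it was −1.50 and −1.59 (limma adjusted p = 8.74e-05 and 0.000111).

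Endothelial genes moved with Procr, which endothelium also expresses. The mean level of 12 endothelial genes lay above the array median by 2.35 to 4.94 in DMSO and 2.48 to 4.92 in GSI at 4 h, and by 1.14 to 2.79 and 1.19 to 2.52 at 10 h. Between the times 11 of 12 fell in DMSO and 10 of 12 in GSI, and 0 rose, with medians of −1.88 and −1.79, beside 10.7% and 10.8% of all genes that fell. Under the other 3 scalings 11 or 12 of 12 fell in each treatment, where 3394 to 14425 of 22180 genes fell. All 12 were above the array median on average at both times. Cdh5 was at 10.63 ± 1.03 in DMSO at 4 h and 7.91 ± 1.94 at 10 h, and the list was highest in pair 6 and lowest at 4 h in pair 1, the pairs where Procr was also highest and, in DMSO, lowest. In the list 4 of 12 genes (Emcn, Eng, Esam and Tek) are also in the lists of stem cell surface markers or partners used here. The other 8 alone ran from 2.24 to 5.16 in DMSO at 4 h and from 0.96 to 3.06 at 10 h. Whether stem cells express those 8 as well was not examined. The part of the endothelial genes in the fall of Procr was not tested.

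Genes of other lists passed between the times as well, beside 42.0% higher and 10.7% lower of all genes in DMSO and 44.7% and 10.8% in GSI. Of 13 hepatocyte genes 9 fell in DMSO and 6 in GSI, with medians of −1.99 and −1.91, and of 18 genes of OP9 stroma 4 and 10 fell, with medians of −0.47 and −0.81. Without centring 12 and 12 of the hepatocyte and 14 and 18 of the stromal genes fell. Under that scaling 12884 of 22180 genes fell in DMSO and 14425 in GSI. Of 9 erythroid genes 5 rose in each treatment and of 12 mast cell genes 10 and 8 rose. On average 9 of the 12 mast cell genes lay below the array median at 4 h and 7 at 10 h, and 0 of the 9 erythroid genes at either time. Without centring 0 erythroid genes rose in DMSO and 1 in GSI, and 1 mast cell gene rose and 2 fell in DMSO and 0 rose and 4 fell in GSI. With quantile normalization 4 mast cell genes rose and 0 fell in DMSO, and 2 rose and 2 fell in GSI. Of 12 macrophage genes 3 rose and 1 fell in DMSO and 3 rose and 3 fell in GSI, and of 9 megakaryocyte genes 2 fell in each; without centring 0 macrophage genes rose and 8 fell in each treatment, with cyclic loess 0 rose and 1 and 5 fell, and 4 megakaryocyte genes fell in each without centring. Of 14 lineage antigen genes 5 rose and 1 fell in DMSO and 5 rose and 2 fell in GSI; without centring 0 rose and 9 fell and 0 rose and 10 fell, and with quantile normalization 2 rose and 3 fell and 2 rose and 4 fell. Their part in the differences of the sort markers was not tested.

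**Figure D2:**
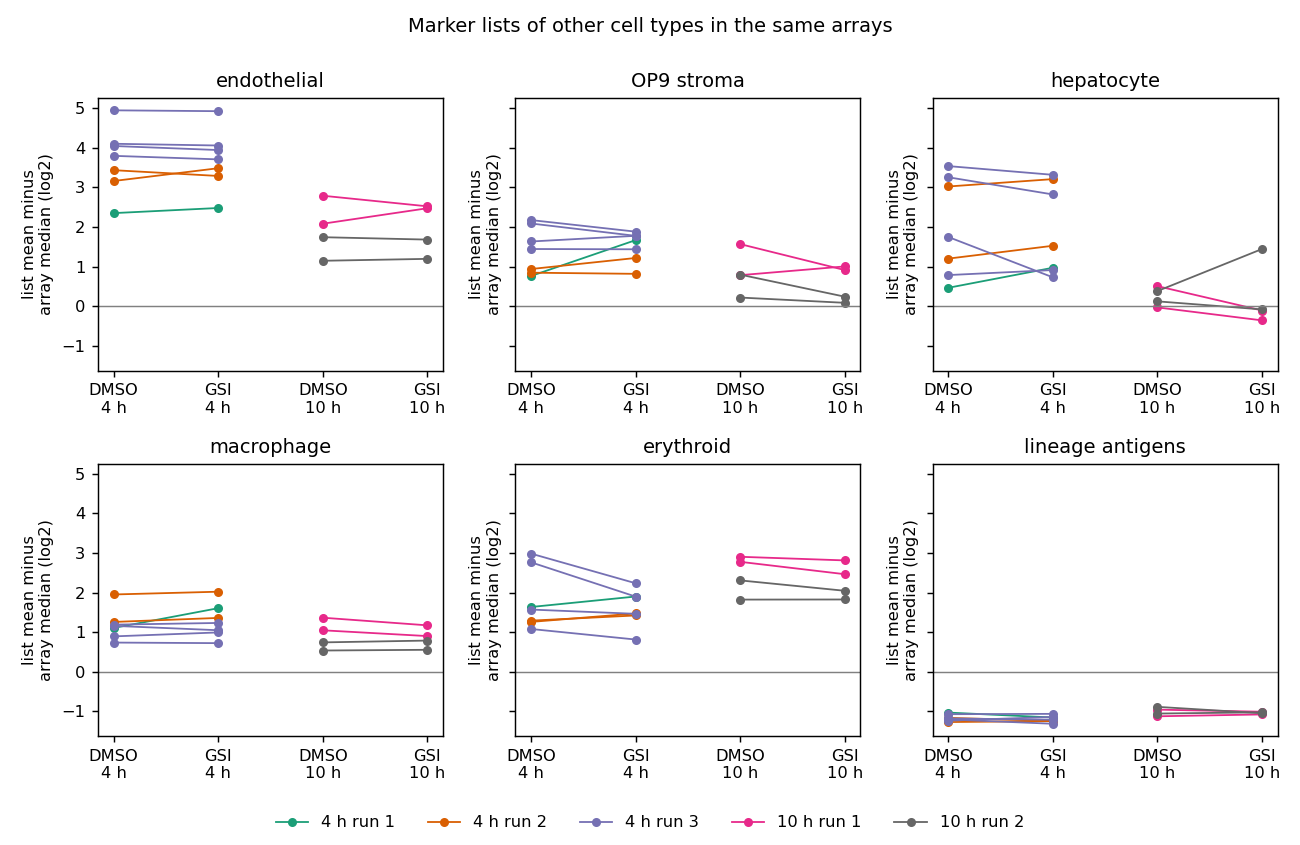
Mean log2 level of 6 marker lists minus the median gene of the same array (vertical axis) by group (horizontal axis); lines join pairs and colours are runs. The endothelial list lies highest at 4 h, from 2.35 to 4.94, and at 1.14 to 2.79 at 10 h, whereas the lineage antigens stay between −1.31 and −0.89.

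Cd34 (Entrez 12490, chromosome 1) had a high signal throughout. It ran from 9.63 through 10.75 to 11.45 in DMSO at 4 h and from 9.69 through 11.06 to 11.33 in GSI. The low end is pair 6 in both treatments, and the 6 arrays of runs 1 and 2 (11.20 to 11.45) lie above the 8 of run 3 (9.63 to 11.06). At 10 h it was 9.40, 10.15, 10.08 and 10.12 in DMSO and 10.39, 10.37, 10.38 and 10.44 in GSI. These 2 groups do not overlap, and the share of all genes of which this is true was not counted. After centring the difference between times was −0.20 ± 0.30 in DMSO and 0.25 ± 0.24 in GSI and did not pass (limma adjusted p = 0.599 and 0.399). Without centring it was lower in DMSO by −0.86 (limma adjusted p = 0.0264). In GSI the sign was negative under each of the other 3 scalings, at −0.43 without centring, −0.16 with quantile normalization and −0.23 with cyclic loess.

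Cd27 (Entrez 21940, chromosome 6) had the widest spread of the 6 genes among the 4 h arrays. It ran from 4.80 through 6.65 to 8.05 in DMSO and from 4.92 through 6.84 to 7.51 in GSI, and the 6 arrays of runs 1 and 2 (7.38 to 8.05) lie above the 8 of run 3 (4.80 to 6.84). Pair 6 was lowest in both treatments. At 10 h it was 5.84, 6.85, 6.40 and 6.21 in DMSO and 6.04, 6.38, 6.09 and 6.19 in GSI, within the range of the 4 h arrays. The difference between times was 0.31 ± 0.49 in DMSO and 0.19 ± 0.40 in GSI and did not pass (limma adjusted p = 0.624 and 0.703).

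In the list of 11 measured partners of CD34, EPCR and CD27, 3 rose and 3 fell in DMSO and 2 rose and 3 fell in GSI, beside 42.0% higher and 10.7% lower of all genes in DMSO and 44.7% and 10.8% in GSI. Without centring 1 rose and 8 fell in each treatment, with quantile normalization or cyclic loess 3 rose and 4 fell in DMSO and 2 rose and 5 fell in GSI. Of 22180 genes 12884 fell in DMSO and 14425 in GSI without centring. With quantile normalization or cyclic loess 3394 to 4089 fell. Cd70, which encodes the ligand of CD27, rose by 0.93 ± 0.09 and 0.91 ± 0.06 after centring. It passed under the other scalings at smaller sizes, 0.265 and 0.226 without centring and 0.44 to 0.54 with quantile normalization or cyclic loess. Siva1, which encodes a protein that binds the CD27 tail, rose by 1.05 ± 0.20 and 1.07 ± 0.18 but did not pass without centring (0.39 and 0.39). Thbd, which encodes thrombomodulin, the cofactor of protein C activation, fell in GSI by −1.29 ± 0.39 (limma adjusted p = 0.0127) and passed in DMSO too, at −1.18, though there not with quantile normalization (−1.20) or cyclic loess (−1.21). Emcn, a sialomucin of stem cells and endothelium, fell in DMSO by −1.09 ± 0.22 (limma adjusted p = 0.00123) and passed in GSI too, at −0.70. Of 26 other measured stem and progenitor surface genes, 3 rose and 8 fell in each treatment, beside 42.0% higher and 10.7% lower of all genes in DMSO and 44.7% and 10.8% in GSI. Without centring 0 rose and 15 fell in DMSO and 1 rose and 12 fell in GSI. Esam fell by −2.03 ± 0.37 and Eng by −1.85 ± 0.32 in DMSO, and in GSI by −1.51 and −1.42. Tek fell by −1.51 ± 0.31 in GSI and by −1.66 in DMSO, while Il7r, the interleukin 7 receptor of lymphoid progenitors, rose by 0.87 ± 0.12 in DMSO and 1.03 ± 0.09 in GSI and did not pass in DMSO without centring (0.20).

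Across the 6 genes, 3 passed between 4 h and 10 h in DMSO (Slamf1 and Cd48 higher, Procr lower), where 52.7% of all genes passed, 42.0% higher and 10.7% lower. The same 3 passed in GSI, where 55.5% of all genes passed, 44.7% higher and 10.8% lower. After centring a count of 3 of 6 is therefore near the share of all genes, and the median of the 6 was 0.07 in DMSO and 0.22 in GSI against 0.25 and 0.26 over all genes. With quantile normalization the same 3 passed in each treatment, where a smaller 7565 and 8203 of 22180 genes passed. With cyclic loess Kit passed as well, where 7181 and 7758 genes did. The balance over all genes rests on the scaling: of the genes that passed in DMSO, 79.6% were higher after centring, 3.48% without centring, 55.1% after quantile normalization and 48.1% after cyclic loess, and in GSI 80.5%, 3.16%, 56.4% and 47.3%. The median of all genes was −0.41 and −0.42 without centring, 0.04 and 0.04 after quantile normalization, and −0.0057 and −0.0066 after cyclic loess. Slamf1, Cd48 and Procr passed with the same sign under all 4 scalings in both treatments: in DMSO Slamf1 was higher by 0.76 to 1.42, Cd48 by 1.29 to 1.97, and Procr lower by −2.26 to −1.60.

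**Figure D3:**
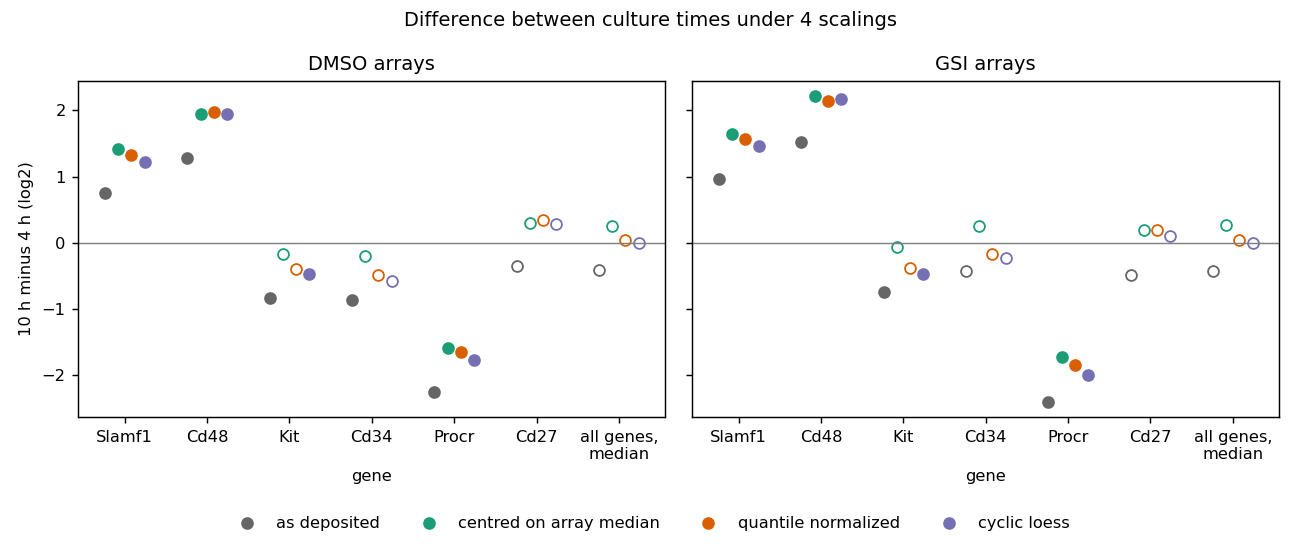
Difference between 10 h and 4 h in log2 units (vertical axis) for each sort marker gene and for the median of all genes (horizontal axis), in DMSO and GSI arrays, under 4 scalings (colours); filled points passed limma at an adjusted p under 0.05, and the median of all genes has no test. Slamf1 and Cd48 are above 0 and Procr below 0 under each scaling, whereas Kit, Cd34 and Cd27 move with the scaling.

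The comparison of GSI with DMSO asks whether blocking Notch cleavage changed the RNA of the sort markers. At 4 h 0 of 6 passed, where 0.00451% of all genes (1 gene) did, and each of the 6 had a limma adjusted p of 0.999. The differences were 0.02 for Slamf1 (95% confidence interval −0.19 to 0.23), −0.10 for Cd48 (−0.35 to 0.14), 0.07 for Kit (−0.07 to 0.22), 0.03 for Cd34 (−0.14 to 0.21), 0.10 for Procr (−0.08 to 0.27) and −0.02 for Cd27 (−0.25 to 0.22). Kit was higher with GSI in 6 of 7 pairs, Slamf1 and Procr in 4 of 7, and Cd48, Cd34 and Cd27 in 3 of 7. For Cd48, Cd34 and Cd27 the SD of the pair means, which also holds the differences between runs, was 0.69, 0.61 and 1.02, and the SD of the pair differences was 0.29, 0.20 and 0.31.

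At 10 h 0 of 6 passed as well, where 0.667% of all genes (148 genes) did. That number of genes was 48 without 10 h pair 1, 228 without pair 2, 27 without pair 4, 62 to 72 without 4 h pair 2, 3, 5 or 7, and 2 with the 10 h arrays alone. Cd34 came nearest. It was higher with GSI in 4 of 4 pairs, by 0.99, 0.22, 0.30 and 0.32 in pairs 1 to 4, and by 0.46 ± 0.11 in the fit (95% confidence interval 0.23 to 0.69, 1.37-fold, limma adjusted p = 0.0715). The largest difference is pair 1, where the DMSO array (9.40) was low and the GSI array (10.39) was like the others. That DMSO array was also the lowest of the 8 arrays at 10 h for Cd48 (5.79), Cd27 (5.84) and Ptprc (8.44, against 9.11 to 9.36). It was not the lowest for Kit (8.86, lowest 8.65), Procr (7.02, lowest 6.22) or Slamf1 (5.14, lowest 4.48). Without pair 1 the difference was 0.28 (limma adjusted p = 0.233), and within the runs it was 0.61 in run 1 and 0.31 in run 2, of 2 pairs each.

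Pair 1 had the highest difference for every gene but Slamf1. Kit was higher with GSI by 0.59 in pair 1 and by −0.03, 0.02 and 0.05 in the others, with a fitted difference of 0.16 (95% confidence interval −0.03 to 0.35, limma adjusted p = 0.455). Cd48 differed by 0.66, 0.14, 0.04 and −0.28 in pairs 1 to 4, with 0.14 in the fit (−0.19 to 0.46, limma adjusted p = 0.733). Slamf1 went the other way in pair 1, at −0.26, and was higher by 0.29, 0.43 and 0.45 in the other 3 pairs, with 0.23 in the fit (−0.05 to 0.50, limma adjusted p = 0.456). Procr differed by −0.05 (−0.28 to 0.19, limma adjusted p = 0.887) and Cd27 by −0.15 (−0.46 to 0.16, limma adjusted p = 0.686), each lower in 3 of 4 pairs and higher in pair 1, by 0.22 and 0.20.

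Over both times together 0 of 6 passed, where 0.32% of all genes (71 genes) did, or 20 to 136 genes when 1 pair was left out. Cd34 had the largest mean difference, 0.25 ± 0.07 (limma adjusted p = 0.145). In the difference between the GSI effect at 10 h and at 4 h 0 of 6 passed too, where 0.018% (4 genes) did, with 0.43 ± 0.14 for Cd34 (limma adjusted p = 0.407). At an unadjusted p under 0.05 by limma, 0 of 6 were found at 4 h and 1 of 6, which was Cd34, in each of the other 3 GSI comparisons, against 934 of all genes at 4 h, 3122 at 10 h, 2654 over both times and 2075 in the difference. The median of the 6 genes was 0.03 at 4 h and 0.15 at 10 h, beside 0.01 and −0.01 over all genes.

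**Figure D4:**
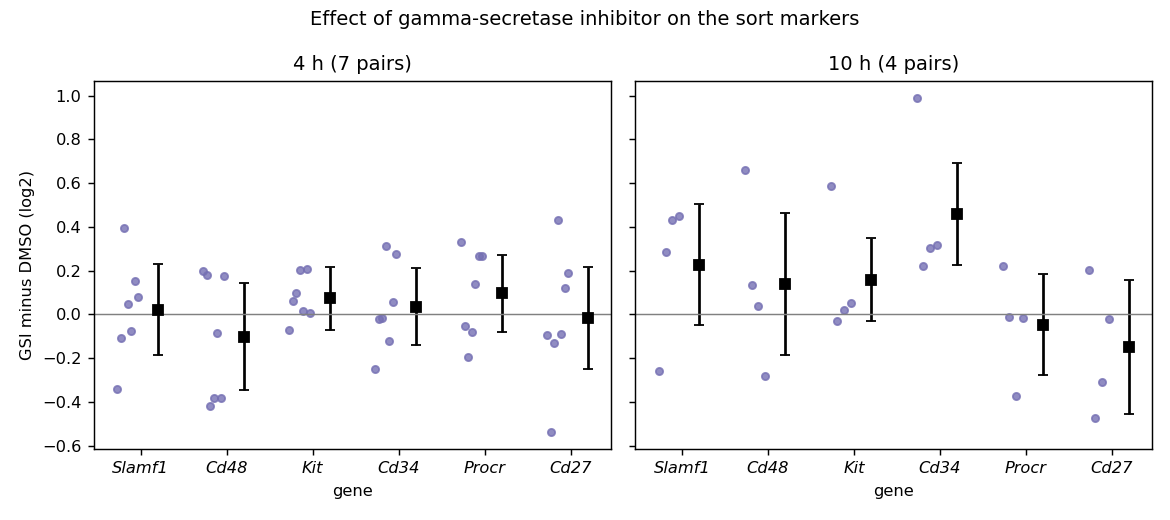
Difference of GSI minus DMSO in log2 units (vertical axis) for each sort marker gene (horizontal axis) at 4 h and 10 h; circles are single pairs, and squares with bars are the limma estimate with its 95% confidence interval. At 10 h Cd34 is above 0 in 4 of 4 pairs, from 0.22 to 0.99, and pair 1 is the highest circle for 5 of the 6 genes, Slamf1 being the other.

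The partners of the sort markers were examined with GSI as well, where 0.00451% of all genes passed at 4 h and 0.667% at 10 h. In the lists of SLAM receptors and adaptors (10 genes), Ly6 family (12), Kit signalling (17) and partners of CD34, EPCR and CD27 (11), 0 passed in either direction at 4 h or at 10 h. The genes with the smallest p at 10 h, none of which passed, were Cd244a (−0.29), Ly6e (0.40, limma adjusted p = 0.0848), Sh2b3 (0.46) and F2rl2 (−0.65). Among the 26 other stem and progenitor surface genes 1 passed as higher with GSI at 10 h and 0 at 4 h. It was Flt3, the FLT3 ligand receptor of early progenitors. At 10 h it was at 4.90 ± 0.20 (SD, n = 4) in DMSO and 6.17 ± 0.30 (SD, n = 4) in GSI. It was higher with GSI there by 1.28 ± 0.17 (limma adjusted p = 0.00373) and over both times by 0.84 ± 0.11 (limma adjusted p = 0.00254). At 4 h its levels were 5.67 ± 0.99 (SD, n = 7) in DMSO and 6.06 ± 0.999 (SD, n = 7) in GSI. Flt3 differed there by 0.40 ± 0.13 (limma adjusted p = 0.999), and the difference between the times did not pass (0.88 ± 0.21, limma adjusted p = 0.334). Its results under the alternative fits are not given here. With GSI 0 of the 12 endothelial, 13 hepatocyte and 18 stromal genes passed at either time, beside the same small shares of all genes. At 10 h 3 of 18 stromal genes were above 0, with a median of −0.22, against 13 of 18 at 4 h. For endothelial and hepatocyte genes 7 of 12 and 4 of 13 were above 0 at 10 h, with medians of 0.04 and −0.01. Eng, an endothelial gene, was at 0.48 there (limma adjusted p = 0.0559).

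How the 6 genes varied from culture to culture is described by the correlation of their deviations from the mean of their own time over the 22 arrays, which share pairs and runs and carry no p here. Cd34 and Cd27 went together, with r = 0.866, and Cd34 and Procr went opposite ways, with r = −0.568. Differences between runs are part of these values: at 4 h Cd34 and Cd27 were both higher in runs 1 and 2 than in run 3. Both were lowest at 4 h in pair 6, where Procr was highest. Correlations within runs were not computed. Slamf1 had no r above 0.301 with any of the others. Among genes at or above the median level, the ones most like Cd34 were Elmo1 (r = 0.967), Arhgap30 and Cyth4 (both 0.959). Those most like Procr were Klf4 (0.874), Snrk (0.873) and Klf2 (0.865), and those most like Cd27 were Atp13a2 (0.944), Eefsec (0.934) and Il17ra (0.93). For Kit they were Pacs2 (0.876), Rab14 (0.848) and Fastk (0.846), for Cd48 Rmdn1 (0.853), Sod2 (0.836) and Wfdc17 (0.83), and for Slamf1 Pon3 (0.774), Srp9 (0.747) and Lat (0.725). Slamf1 had the lowest best match of the 6.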

How the data were processed

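Each of the 22 samples was hybridised to 1 single-colour array. Values are on the log2 scale as deposited by the authors; the submitters' processing notes name Partek 6.6 and RMA, and the genome build of the array is not given in the sources used here. Of 41345 probes, 23521 had 1 gene symbol, 1814 several and 16010 none listed; the last 2 kinds were left out, among them 1 further probe of Cd34 with several symbols. This left 22180 genes with 1 probe each. No filter on low signal was applied, and precision is limited by how many arrays each group has.

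GSI was compared with DMSO in 1 fit over 22 arrays with limma 3.58.1 in R 4.3.3 (lmFit, eBayes with an intensity trend, 2-sided), with the pair as a fixed block. The pairing comes from the series' design text. As a check, the deviations of partners correlated with r = 0.223 to 0.872 at 4 h and 0.213 to 0.449 at 10 h; the own partner was the best match for every pair but 4 h pair 4, which had the lowest 4 h value. Times were compared within each treatment on 11 arrays centred on their medians over genes. These fits took the arrays as independent and held no term for run. Their SEs and p-values therefore make no allowance for arrays of 1 run being alike. Adjusted p-values are Benjamini-Hochberg values over 22180 genes with a threshold of 0.05. The replicates are the biological replicates of the design text. Alternatives were other scalings, no block, a filter on low signal, the mean of probes, no trend, 1 time only, single runs and leaving out replicates. The fit was tested on simulated data.

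The genes named are the 6 measured sort markers, up to 3 genes with the smallest p among those that passed in each list (otherwise the 1 with the smallest p), and the 3 genes most correlated with each sort marker. The genes and lists were chosen with earlier results of these data known. Promoter sequences are from RefSeq, GRCm38.p6; all 6 measured genes matched by symbol.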

Additional observations from a re-analysis of the deposited data

Results flagged for a closer look

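Of 36 groups of 7 or 4 values tested for a single sample far from the others, 4 held one; chance gives about 1 in 20. Cd48 was at 6.80 in DMSO at 4 h in replicate 3, with a gap of 1.25 to the next sample. Cd34 was at 9.40 in DMSO at 10 h in replicate 1, with a gap of 0.68 to the next. The same pair was far from the others in the GSI minus DMSO difference at 10 h for Cd34, with 0.99, and for Kit, with 0.59. The explanation of these values was not tested.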

How the results depend on the processing

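No member passed in a GSI comparison under any alternative except Cd34 at 10 h among genes at or above the median gene, where 1 member passed (limma adjusted p = 0.0439), with fewer genes tested. Slamf1 lies below that filter and has no value there, so 2 members passed with time in each treatment. Without centring 5 members passed with time in DMSO, beside 13348 of 22180 genes. In GSI Slamf1, Cd48, Kit and Procr passed without centring, beside 14895 genes. With cyclic loess 4 members passed in each treatment, beside 7181 genes in DMSO and 7758 in GSI. Leaving out 1 array at a time left 3 to 3 members called with time in each treatment, and leaving out 1 pair left 0 to 0 in the GSI comparisons. With no replicate block (unpaired), Cd34 at 10 h kept 0.46 with limma adjusted p = 0.889, and over all genes 0 passed at 4 h and 0 at 10 h. With the 10 h arrays alone its adjusted p was 0.487, and over its alternatives it ran from 0.0439 to 0.889.

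Signs turned for members that had not passed, and none of these passed after turning. At 4 h within run 2 the GSI difference was −0.0188 for Cd34 and −0.12 for Procr, and within run 3 it was 0.16 for Cd27. At 10 h it was 0.10 for Procr within run 1 and −0.12 for Cd48 within run 2. Over both times quantile normalization gave −0.0273 for Cd48 and −0.0139 for Procr, and cyclic loess −0.0031 and −0.0344. Cyclic loess gave −0.0008 for Kit in the difference between the times. With time, Cd27 was −0.36 in DMSO and −0.49 in GSI without centring, and Cd34 in GSI was −0.43 without centring, −0.16 with quantile normalization and −0.23 with cyclic loess. A replicate block over the numbers 1 to 4, which are not shared cultures across times, gave −0.30 for Cd27 in DMSO, and −0.35 for Cd27 and −0.13 for Cd34 in GSI, and changed no call.
Leaving out 1 pair at a time, the GSI difference at 4 h ran from −0.0417 to 0.0811 for Slamf1, −0.0132 to 0.0808 for Cd34 and −0.0918 to 0.0695 for Cd27. At 10 h it ran from −0.0356 to 0.278 for Cd48 and −0.136 to 0.0628 for Procr. Over both times it ran from −0.0694 to 0.0874 for Cd48 and −0.0201 to 0.0793 for Procr, and in the difference from −0.0602 to 0.146 for Kit. Leaving out 1 array at a time, the difference with time ran from −0.371 to 0.0164 for Kit in DMSO, and from −0.199 to 0.137 for Kit and −0.0842 to 0.337 for Cd27 in GSI.
Counts over all genes ran from 0 to 148 at 4 h (1 in the fit reported), 0 to 285 at 10 h (148), 2 to 162 over both times (71), 0 to 7 in the difference (4), and with time from 4365 to 13348 in DMSO (11695) and 5317 to 14895 in GSI (12301). The mean and difference of both times were not run on 1 time alone, and run 1 at 4 h holds 1 pair and was not fitted. The cause of these differences was not tested.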
